A study of Mus musculus with 6 samples.

Results

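A small class of cardiomyocytes (CMs) in the developing mouse left ventricle carried transcripts of the amino acid stress response. The cells were chosen by their own transcripts. A cell was taken as a CM if it held at least 1 unique molecular identifier (UMI, a tag that marks 1 captured transcript) of each of Tnni3, Tnnt2, Actc1 and Tnnc1. It was called a stress CM if it also held at least 1 UMI of at least 3 of the 6 genes Trib3, Asns, Nupr1, Atf5, Phgdh and Sars. By this rule 478 of 30733 CMs (1.56%) were stress CMs, among 31156 cells in all. Of these 478 cells, 434 (90.8%) came from the libraries of postnatal day 1, which held 39.3% of all CMs.

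The genes of the rule belong to the integrated stress response. When an amino acid runs short, or when mitochondria or protein folding are disturbed, kinases phosphorylate the initiation factor eIF2, bulk translation slows and the transcription factor ATF4 is made. ATF4 then switches on genes that import and synthesise amino acids and charge tRNAs, and in heart muscle the same programme is known from mitochondrial disease, where it includes the secreted hormones FGF21 and GDF15. Asns makes asparagine, Phgdh opens the serine pathway, Sars charges the serine tRNA, Atf5 is a transcription factor related to ATF4, Trib3 is a pseudokinase that restrains ATF4, and Nupr1 is a small stress-induced chromatin protein.

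Left ventricles of untreated C57BL/6J mice were dissociated, fixed in methanol, stained for the CM marker MYH1 and for DNA, and sorted into diploid (2n) and tetraploid (4n) CMs at embryonic day 16.5 (E16.5), postnatal day 1 (P1) and postnatal day 5 (P5). Each of the 6 libraries, named by age and ploidy (E16.5-2n to P5-4n), was a 3′ droplet library of cells pooled from 3 sorts, each sort being 1 litter. There was thus 1 library per age and ploidy, and age cannot be told apart from litter, dissociation or library. The libraries held between 13213992 UMIs (E16.5-4n) and 19714177 UMIs (P1-4n), and a median of 1813 (P1-2n) to 4639 (P5-4n) UMIs per cell. Of the cell barcodes, 499 occurred in more than 1 library. Among the stress CMs 15 had a barcode that another library also held, and no barcode was a stress CM in both.

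The 6 genes that define the class lie on 4 chromosomes in the GRCm38 annotation, all on the minus strand. Asns is at chr6:7675169-7693254, Trib3 at chr2:152337422-152344032, Nupr1 at chr7:126623249-126630861, Atf5 at chr7:44812256-44816658, Phgdh at chr3:98313170-98339990 and Sars at chr3:108424865-108445209. ATF4 binds a composite element that joins a C/EBP site and an ATF site, written here as TGATGNAA. The promoters in the RefSeq table (GRCm38.p6, 250 bases before to 50 bases after each transcript start, 300 bases in all) were searched for these letters on both strands. All 6 rule genes had a promoter there, and 3 of them (Asns, Trib3 and Nupr1) held the motif, against 3.97% of 32851 promoters. Shown 5′ to 3′ on the gene's strand, with the motif in capitals, are the 3 windows of 30 bases at chr6:7693214-7693243, chr2:152344028-152344057 and chr7:126625562-126625591.
Asns: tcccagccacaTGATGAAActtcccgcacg
Trib3: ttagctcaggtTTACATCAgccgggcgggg
Nupr1: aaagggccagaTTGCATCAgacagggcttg
In Asns the motif lay 23 bases before the RefSeq transcript start and read with the gene. In Nupr1 it lay 110 bases before the RefSeq start and in Trib3 14 bases after it, in both cases on the opposite strand. These starts differ from the ends of the genes as given above. The motifs of Asns and Nupr1 lie inside those gene bounds, and that of Trib3 lies outside them. The 120 bases that end at the RefSeq start of Asns (chr6:7693210-7693329, minus strand) are printed to show the surroundings of the motif.
Asns upstream: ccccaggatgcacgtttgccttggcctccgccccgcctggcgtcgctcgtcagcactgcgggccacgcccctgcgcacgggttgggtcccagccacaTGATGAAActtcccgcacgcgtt
The motif is a match of letters and not a measured binding site.

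Stress CMs were rare at E16.5 and P5 (0.236% of CMs, pooled over 4 libraries) and more frequent at P1 (3.59%, pooled over 2). At E16.5 the rule found 11 of 5699 CMs in E16.5-2n (0.193%, 95% Clopper-Pearson interval 0.0964 to 0.345%) and 15 of 4880 in E16.5-4n (0.307%, 0.172 to 0.506%). At P1 it found 223 of 7340 in P1-2n (3.04%, 2.66 to 3.46%) and 211 of 4747 in P1-4n (4.44%, 3.88 to 5.07%). At P5 it found 6 of 4413 in P5-2n (0.136%, 0.0499 to 0.296%) and 12 of 3654 in P5-4n (0.328%, 0.170 to 0.573%). Both P1 intervals lay above the other 4, and at every age the 4n share was above the 2n share, with overlapping intervals at E16.5 and P5. These intervals cover counting error only, and the shares were not tested between ages or ploidies.

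The stress CMs with exactly 3 genes, just inside the rule, were the most numerous. Over all CMs, 23485 held none of the 6 genes, 5885 held 1, 885 held 2, 229 held 3, 148 held 4, 81 held 5 and 20 held all 6. Of the 249 CMs with at least 4 genes, 245 were P1 cells and 4 were from the other libraries. None of the 423 cells that lacked a CM gene held 3 or more of the stress genes.

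Within the class the 6 genes were not detected equally. As a description of what the rule selected, Phgdh had a UMI in 86.5% of P1-2n and 89.6% of P1-4n stress CMs, Asns in 74.4% and 74.9%, Sars in 77.6% and 73.5%, Atf5 in 65.9% and 76.8%, Trib3 in 46.2% and 42.2%, and Nupr1 in 31.8% and 29.4%. Sars, a housekeeping enzyme, was also the most often detected of the 6 in the remaining CMs, at 9.82% of P1-2n (median depth 1798 UMIs) and 15.6% of P1-4n (3083 UMIs). Trib3 was found in 0.492% and 0.573% of the same cells. Among the cells that lacked a CM gene, Trib3 was found in 0 of 129 in P1-2n (median 911 UMIs) and in 1 of 30 in P1-4n (median 1440 UMIs).

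A rule that counts detected genes favours deeply sequenced cells, and the stress CMs were deeper than the rest. At E16.5 their median was 3250 UMIs (2n) and 4253 (4n), against 2236 and 2182 for all other CMs. At P1 it was 4726 and 7993, against 1798 and 3083. At P5 it was 6304 and 6470, against 3758 and 4651. The stress CMs were deeper in every library, most of all at P1. Counted over genes outside the rule, the log2 ratio of the medians was 0.92 ± 0.40 (SD, n = 6 libraries), higher in 6 of 6 libraries (two-sided exact sign-flip permutation test, p = 0.03125, the smallest that 6 pairs allow). Since the rule favours deeper cells, the choice of cells leads to this direction, and no conclusion is drawn from the p. The 2n and 4n libraries of an age come from sorts of that age and may share litters, so that the 6 libraries need not be independent. Doublets were not called here. Xist and Y-linked UMIs, which 1 cell should not hold together, were found together in 16.6% of P1-4n stress CMs against 12.0% of other CMs matched in depth and 4.25% of all other CMs, and in P1-2n in 1.35% against 4.39% and 0.899%. The part of doublets in the higher UMI numbers was not tested.

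Among CMs of like depth the excess at P1 was present from 3000 UMIs upward. In CMs with 5000 to 8000 UMIs P1-2n had a share of 25.0% (67 of 268, 95% interval 19.9 to 30.6%) and P1-4n one of 10.7% (86 of 802, 8.67 to 13.1%). In the same depth class E16.5-2n and E16.5-4n reached 0.457% and 0.295%, and P5-2n and P5-4n 0.235% and 0.327%. Among CMs with 3000 to 5000 UMIs the P1 shares were 9.87% (117 of 1185) and 1.37% (18 of 1313, 0.814 to 2.16%), and the other 4 libraries lay between 0.0495% and 0.743%. There the P1-4n interval overlapped those of E16.5-2n (0.305 to 1.39%) and E16.5-4n (0.321 to 1.46%). Above 8000 UMIs P1-2n was at 34.5% (20 of 58) and P1-4n at 24.1% (105 of 435). In that class E16.5-4n was at 4.00% (3 of 75), E16.5-2n at 0 of 64, P5-2n at 1.17% and P5-4n at 1.56%. Below 3000 UMIs the excess was not seen throughout. From 2000 to 3000 UMIs P1-2n was at 0.884%, but P1-4n was at 0.167%, below E16.5-4n (0.241%) and P5-4n (0.227%). From 1000 to 2000 UMIs P1-2n was at 0.117% and P1-4n at 0 of 998, against 0.235% in P5-2n and 0.599% in P5-4n (1 cell each). At P1 the 2n cells had the larger share in each of these depth classes, whereas over all CMs the 4n cells had it.

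Thinning all cells to 1 depth also left P1 highest. When each CM was reduced at random to 2000 UMIs and the rule applied again, P1-2n held 2.90% and P1-4n 1.07%, the E16.5 libraries 0.0580% (2n) and 0.110% (4n), and P5-2n 0.0252%. In P5-4n it was 0 of 3483 CMs (95% upper limit 0.106%). Thinning left out 4133 of 7340 P1-2n CMs but only 998 of 4747 P1-4n CMs. At 1000 UMIs P1-2n kept 0.507% and P1-4n 0.174%.

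The levels of the 6 rule genes describe what the rule selected and are not compared between ages, since the same number of UMIs is a higher level in a shallower CM. They summed to 1313 CPM (UMIs per 1000000 UMIs of the same cells) in the P1-2n stress CMs and 798 in the P1-4n stress CMs, against 133 and 102 in other CMs matched to them in depth. At E16.5 the sums were 1111 against 111 (2n) and 777 against 109 (4n), and at P5 560 against 61.3 (2n) and 441 against 80.5 (4n). The matched cells were the 5 other CMs of the same library nearest in UMIs to each stress CM, used once. At P1 deep CMs ran out, so the matched cells had a median of 3971 UMIs in P1-2n and 6689 in P1-4n, somewhat below the stress CMs.

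Because the rule used these 6 genes, each of them was next measured in CMs chosen by the other 5 alone. This asks whether the genes were high together in the same cells. The 6 genes had been chosen with earlier results of these data known. That choice favours a joint rise, so the values below are a description and not an independent check. At P1 every one of the 6 was high in the cells that the other 5 had picked. Asns was at 236 CPM in 161 such cells of P1-2n and at 148 in 155 cells of P1-4n, against 35.3 and 21.2 in other CMs matched in depth. Trib3 was at 126 and 60.7 against 10.9 and 5.08, and Nupr1 at 75.6 and 52.3 against 6.19 and 5.05. Both had the widest gaps and the lowest levels outside the class. Atf5 was at 180 and 143 against 28.7 and 27.1. Phgdh was at 355 and 224 against 62.5 and 36.0. Sars, which all cells use, had the narrowest gap, at 261 and 158 against 75.7 and 56.3.

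At E16.5 and P5 the held-out genes gave few UMIs, and their direction was not the same in every library. In E16.5-4n, Asns was at 102 CPM against 6.96 (6 UMIs in 9 cells), Phgdh at 207 against 61.3 (6 UMIs in 4 cells), Atf5 at 79.2 against 12.2 (4 UMIs in 7 cells) and Sars at 143 against 67.8 (5 UMIs in 6 cells), while Trib3 and Nupr1 had 0 UMIs. That library thus had 4 of the 6 genes above their level in matched CMs. In E16.5-2n the chosen cells had 0 UMIs of each held-out gene. In P5-2n they had 0 UMIs of the 5 genes for which any cell was chosen, and in P5-4n there were 2 UMIs of Atf5 and 1 each of Nupr1, Phgdh and Sars. Only 1 to 14 cells were chosen per gene in each of these 4 libraries, so that a gene at 0 there is one not detected at this depth.

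Over the 6 libraries the held-out test was therefore not passed. Against all other CMs the mean log2 ratio was 1.29 for Trib3, 1.63 for Asns, 1.44 for Nupr1, 1.73 for Atf5 (5 libraries), 1.41 for Phgdh and 0.84 for Sars. The adjusted p was 0.5 for Trib3 and 0.3 for the others (two-sided exact sign-flip permutation tests, 6 genes, smallest raw p possible 0.03125, or 0.0625 with 5 libraries). The direction was upward in 2 of 6 libraries for Trib3, 3 of 6 for Asns and Nupr1, 4 of 6 for Phgdh and Sars and 4 of 5 for Atf5, the P1 libraries always among them. A library with 0 UMIs counts as not upward. The UMIs expected in such libraries ranged only from 0.0115 (Trib3, P5-2n) to 0.567 (Phgdh, E16.5-2n). A ratio below 0 there does not show a lower level, so the test cannot decide for these libraries. In CMs that held at least 2 of the other 5 genes, Asns, Atf5 and Phgdh were upward in 6 of 6 libraries and Trib3, Nupr1 and Sars in 5 of 6, with adjusted p from 0.0625 to 0.125 by the same exact permutation test.

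**Figure D1:**
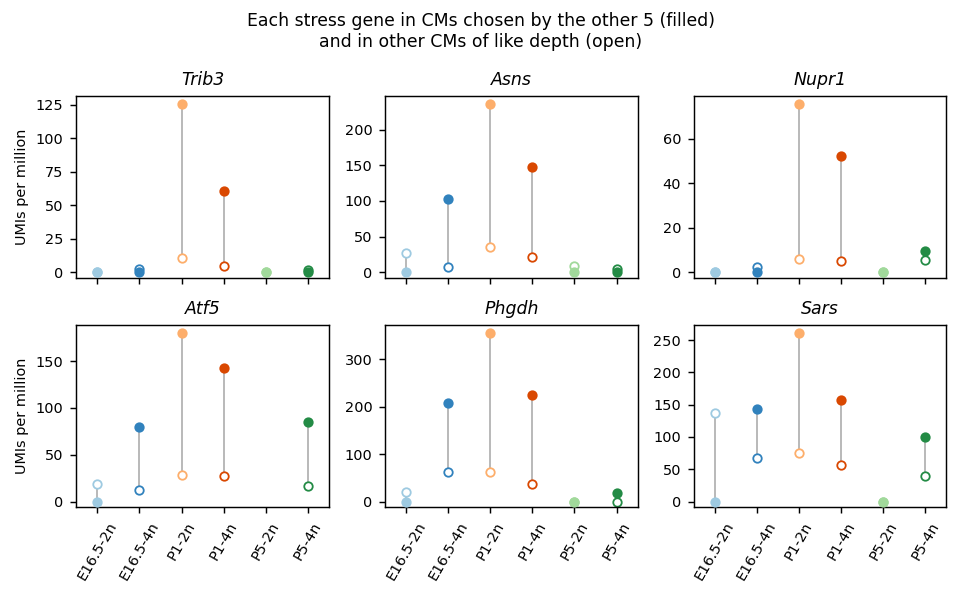
Level of each stress gene (y axis, CPM) in CMs that held at least 3 of the other 5 genes (filled) and in other CMs of the same library matched in depth (open), for the 6 libraries (x axis). At P1 the filled points lie above the open ones for all 6 genes, as for Asns at 236 against 35.3 in P1-2n. At E16.5 and P5 many filled points lie at 0, and Atf5 has no point in P5-2n because no cell was chosen there.

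To find what else set these cells apart, UMIs were summed over the stress CMs and over the other CMs of each library, and the 12 sums were compared with edgeR (quasi-likelihood test, library as a block, Benjamini-Hochberg adjustment), leaving the 10 rule genes out. Of 10480 genes tested, 106 (1.01%) were higher in stress CMs and 136 (1.30%) were lower at an adjusted p under 0.05. The result was carried by P1. Of the 106, 103 were higher in both P1 libraries (24.0% of all genes tested were), but only 16 were higher in all 6. Of the 136, 136 were lower in both P1 libraries (45.3% of all genes tested were) and 47 in all 6. Among all genes tested 1.75% were higher and 6.12% lower in all 6. A gene with 0 UMIs in the few stress CMs of a library counts as lower there, so that the 47 cannot be set against the 16. Without the CMs that held 2 or more markers of another cell type, 186 were higher and 517 lower. With DESeq2 in place of edgeR only 5 were higher and 4 lower, and without the library as a block 5 and 0. Without P1-2n only 13 genes were higher and 4 lower, and without P1-4n 16 and 10. The median log2 fold change of all genes tested was -0.12.

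The comparison was repeated for the 2 P1 libraries and for the 4 libraries of E16.5 and P5 together, a choice made after the values had been seen. Between the stress CMs and the matched CMs of the 2 P1 libraries, 548 of 9637 genes (5.69%) were higher and 313 (3.25%) lower, among them 96 of the 106 and 109 of the 136. That fit rests on 4 sums with 1 residual degree of freedom, and both P1 libraries pool the 3 sorts of that age. Its SE and p-values rest on UMI counts and on a spread estimated over many genes. They do not measure the spread between independent litters. In the 4 libraries of E16.5 and P5, 17 of 10232 genes (0.166%) were higher and 20 (0.195%) lower, of which 3 and 9 were shared with the fit over 6 libraries. The median log2 fold change of all genes in that fit of 4 libraries was -0.33. With depth matched in all 6 libraries, 99 of 3069 genes (3.23%) were higher and 127 (4.14%) lower. Levels below are in CPM, and P1 comparisons are with the matched CMs unless other CMs are named. Counts and fold changes over 6 libraries are against all other CMs unless matched CMs or matched depth are named.

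Regulators of the response rose in part. Over the 6 libraries 3 of the 15 tested passed, all higher (median log2 fold change of the list 0.15), and at P1 7 of 14 were higher and 1 lower (median 0.48). Atf4 itself was at 261 against 89.7 in P1-2n and at 187 against 102 in P1-4n (log2 fold change 1.26 ± 0.11 SE, edgeR). Ddit3, which encodes the pro-apoptotic factor CHOP, was at 174 against 62.1 and at 123 against 65.5 (1.25 ± 0.12), and over 6 libraries its log2 fold change was 0.78. Chac1, which degrades glutathione, had 19 and 33 UMIs in the P1 stress CMs and was found in 7.62% and 14.7% of them, against 0.717% and 1.52% of matched CMs. Sesn2, an amino acid sensor that restrains mTORC1, rose by 1.68 ± 0.33 at P1, Cebpg, a partner of ATF4, by 1.30 ± 0.24, Eif2s1, the phosphorylated subunit of eIF2, by 0.64 ± 0.14 and Eif4ebp1, a brake on cap-dependent translation, by 0.57 ± 0.08. Atf3, another stress-induced factor, fell by 0.52 on the log2 scale. At E16.5 and P5 no regulator passed the test (median -0.03). The summed level of the list there was above that of matched CMs, by 0.65 (E16.5-2n), 0.16 (E16.5-4n), 0.05 (P5-2n) and 0.30 (P5-4n) on the log2 scale, with no test.

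A list of 3 secreted stress factors and a receptor was higher in the P1 class. Fgf21, a hormone of the fasting and mitochondrial stress response, had 50 UMIs in the P1-2n and 40 UMIs in the P1-4n stress CMs, and 0 in the stress CMs of the other 4 libraries. At P1 it was found in 14.8% and 13.3% of stress CMs against 0.807% and 0.948% of matched CMs, and its level was 44.3 against 2.05 and 20.8 against 1.50 (log2 fold change 4.18 ± 0.32). Gdf15, which acts on appetite through the brainstem, was at 17.7 against 5.53 and 20.8 against 8.73 (1.46 ± 0.28). Stc2, a secreted glycoprotein, rose by 2.23 ± 0.41 and Vldlr, a lipoprotein receptor that ATF4 induces, by 0.72 ± 0.12. All 4 members of this list were thus higher at P1 (median 1.85). Over the 6 libraries 2 of 3 tested passed, Gdf15 at 1.47 and Stc2 at 1.85.

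Cytosolic aminoacyl-tRNA synthetases, which load amino acids onto tRNAs, gave the most calls of any list over the 6 libraries. Of 19 tested, 10 were higher over the 6 libraries and none lower (median 0.73), and 12 were higher at P1 (median 0.80). Their summed level was 1432 in stress against 646 in matched CMs of P1-2n, and 1059 against 574 in P1-4n. At E16.5 it was 1404 against 905 (2n, 54 UMIs) and 1174 against 777 (4n, 96 UMIs). At P5 it was 662 against 610 (2n, 23 UMIs) and 662 against 552 (4n, 70 UMIs). The sum was thus higher in all 6 libraries, with no test and on few UMIs outside P1. In the fit without P1, 0 of 19 synthetases passed (median 0.09, against -0.33 for all genes tested). Gars (glycine) was at 303, 179, 335, 186, 112 and 91.9 in the stress CMs (libraries in order of age, 2n before 4n), against 114, 97.3, 60.1, 55.1, 50.9 and 51.8 in the other CMs of the same libraries. Gars was thus higher in every library, although P1 gave 735 of its UMIs and the other 4 libraries 41 (log2 fold change 1.46 ± 0.21, adjusted p = 1.73e-09). Cars (cysteine) was also higher in 6 of 6 libraries (2.13 ± 0.24) and Aars (alanine) likewise (0.86 ± 0.19). Nars (asparagine) rose at P1 by 1.74 ± 0.12, whereas its value in the libraries of E16.5 and P5 was -0.81 and did not pass. Mars, Yars, Iars, Tars, Eprs and Lars completed the 10, with log2 fold changes of 1.50, 1.38, 1.22, 1.06, 1.01 and 0.73. Kars and Qars (lysine and glutamine) had log2 fold changes of 0.20 ± 0.16 and 0.08 ± 0.21 at P1 and did not pass. Of the separate mitochondrial synthetases 0 of 17 passed over 6 libraries and 1 of 16, Ears2, was lower at P1. Their sum against matched CMs differed by 0.03 and -0.06 on the log2 scale in P1-2n and P1-4n, and by 0.18 to 0.35 in the other 4 libraries, with no test.

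Amino acid transporters rose for a subset. Slc3a2 and Slc7a5 form the heavy and light chains of the large neutral amino acid exchanger. Slc3a2 was at 75.7, 71.7, 130, 78.1, 140 and 45.9 in the stress CMs in the same order, against 45.2, 46.3, 20.7, 22.3, 11.1 and 14.9 in the other CMs. It was higher in every library (1.96 ± 0.17, adjusted p = 1.79e-25), although on 3 to 6 UMIs in each library of E16.5 and P5. Slc7a5 had a log2 fold change of 2.50 ± 0.26. Slc7a3, a carrier of arginine and lysine, was close to absent outside the class. It had 38 and 39 UMIs in the P1 stress CMs, was found in 16.1% of them in both libraries against 0.987% and 0.853% of matched CMs, and had 0 UMIs in the stress CMs of E16.5 and P5 (P1 log2 fold change 3.95 ± 0.33). Slc6a9, a glycine carrier, rose at P1 by 2.80 ± 0.60 and Slc7a1 by 0.84 ± 0.24. In all, 2 of 9 transporters passed over 6 libraries and 5 of 11 at P1, none lower (medians 0.30 and 0.84).

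Enzymes of serine and folate metabolism, the pathway that Phgdh opens, rose next to it. Of 14 tested, 7 were higher over 6 libraries and 7 of 13 at P1, with none lower (medians 0.78 and 0.85). Mthfd2, a mitochondrial folate enzyme at chr6:83305691-83325908, was at 25.2, 23.9, 219, 134, 28.0 and 64.3 in the stress CMs in the same order. In the other CMs it was at 17.1, 28.9, 15.3, 13.6, 8.94 and 16.9. Mthfd2 was thus higher in 5 of 6 libraries, most of all in both P1 libraries, but rested on 1 UMI each in E16.5-2n and P5-2n and on 7 in P5-4n. The log2 fold change was 2.93 ± 0.19 (adjusted p = 5.6e-50), and 62.3% and 65.9% of P1 stress CMs held Mthfd2 against 10.1% and 12.7% of matched CMs. Psat1 and Psph, the steps after Phgdh, had log2 fold changes of 1.69 ± 0.21 and 0.84 ± 0.20. Shmt1, Shmt2, Mthfd1l and Aldh1l2, which move carbon units onto and through folate, had values of 0.99, 0.89, 1.76 and 1.11. All of these calls rested on P1. Without it the values were -0.095, -0.085, -0.48 and -0.46 for these 4, -1.42 for Psph, 0.26 for Psat1 and 0.71 for Mthfd2, none past the test.

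Of 12 other amino acid enzymes tested over 6 libraries 2 passed, Pycr1 and Aldh18a1, both of proline synthesis. Pycr1, which completes proline in mitochondria, had 19 and 32 UMIs in the P1 stress CMs, at 16.8 against 3.48 and 16.7 against 3.24, and a log2 fold change of 3.12 ± 0.30 over 6 libraries. Aldh18a1, which starts the same branch, was at 29.2 against 6.96 and 20.3 against 7.98 (1.75 ± 0.26). At P1 Got1 (0.69 ± 0.09), Gpt2 (1.22 ± 0.32) and Cth (3.49 ± 0.99, 11 UMIs) were also higher, so that 5 of 13 passed there. Outside the lists, Pck2, the mitochondrial enzyme that makes phosphoenolpyruvate, rose by 1.63 ± 0.22, Xpot, which exports tRNA from the nucleus, by 1.19 ± 0.19, and Nmrk2, a muscle kinase of NAD synthesis, by 1.27 ± 0.22. Nmrk2 was at 212 against 64.3 in P1-2n and 127 against 41.9 in P1-4n. These 3 came from a rule chosen after the values had been seen. The rule set with the lists found 9 rises in all 6 libraries, led by N4bp3 (1.74 ± 0.22) and the nucleolar gene Gnl3 (1.43 ± 0.19), followed by Alg3, Prmt7, Gm6576, Agpat2, H2-K1, Eif3c and Vmp1 at 0.67 to 0.98.

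**Figure D2:**
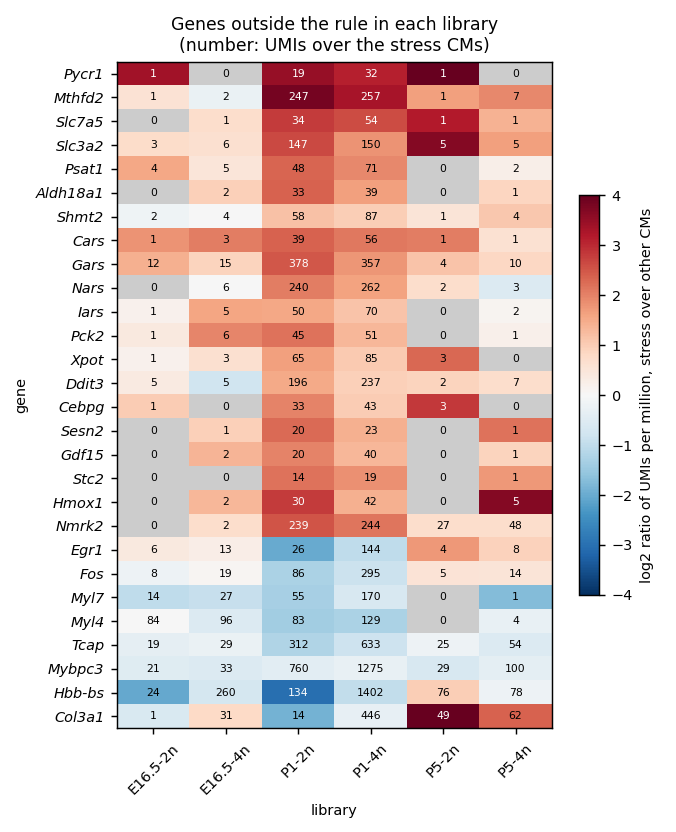
Log2 ratio of CPM in stress over other CMs (colour) for genes outside the rule (rows) in each library (columns), with the UMI number of the stress CMs printed in each field and fields with 0 UMIs in grey. Mthfd2 rests on 247 and 257 UMIs at P1 but on 1 to 7 UMIs in each other library, and Gars and Slc3a2 are red in every column.

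The composite motif was more frequent in the promoters of the genes that rose than in those of all genes. Of the 106 genes higher over 6 libraries 86 had a promoter in the RefSeq table, and 11 of these (12.8%) held TGATGNAA on either strand, against 194 of 8027 tested genes with a promoter (2.42%) and 1 of 100 genes that were lower (Art3). No test was run on these shares. Among the synthetases it was 5 of 11. Of the genes higher at P1 415 had a promoter, and 4.58% of these held the motif. The following windows show the motif in genes described above, 5′ to 3′ on the gene's strand, at chr11:120643833-120643862, chr14:55540152-55540181, chr6:55037960-55037989, chr15:11399655-11399684, chr13:49682126-49682155 and chr4:129189895-129189924.
Pycr1: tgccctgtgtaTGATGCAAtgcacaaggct
Pck2: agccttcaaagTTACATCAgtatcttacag
Gars: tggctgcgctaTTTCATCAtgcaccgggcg
Tars: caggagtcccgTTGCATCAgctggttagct
Iars: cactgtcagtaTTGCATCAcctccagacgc
Yars: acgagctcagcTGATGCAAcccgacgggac
The motif lay 103 bases before the RefSeq start in Pycr1 and Pck2, 30 in Gars and 15 in Tars, and 7 and 3 bases after it in Iars and Yars.

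At P1 6 of 10 mitochondrial chaperone and protease genes were higher and none lower (median 0.52). Over 6 libraries 1 of 10, the protease gene Lonp1, passed against all other CMs (0.69 ± 0.20). With depth matched over 6 libraries 3 of 9 tested were higher (Hspa9, Lonp1 and Dnaja3, median 0.30). Hspa9, the mitochondrial Hsp70, was at 1261 against 575 in P1-2n and 838 against 460 in P1-4n (1.08 ± 0.08). Lonp1 rose at P1 by 1.11 ± 0.12, Dnaja3 by 0.86 ± 0.12, Hspe1 by 0.79 ± 0.07, Hspd1 by 0.68 ± 0.08 and Clpp by 0.36 ± 0.12. Of 20 genes of the unfolded protein response of the endoplasmic reticulum, none passed over 6 libraries against all other CMs (by edgeR, with 1448 of all genes at an unadjusted p under 0.05). With depth matched over 6 libraries 1 of 11 tested, Herpud1, was higher. At P1 2 passed, Herpud1 (0.78 ± 0.11) and Hspa5 (0.34 ± 0.09). The summed level of these 20 genes was above that of matched CMs in 6 of 6 libraries, by 0.07 to 0.65 on the log2 scale, and that of the mitochondrial chaperones in 5 of 6, by -0.03 in P5-2n to 0.83 in P1-2n, with no test.

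At P1 the number of rule genes a cell held went with the level of genes outside the rule, and also with depth. From 0 to 3 rule genes the median depth rose from 1715 to 4277 UMIs in P1-2n and from 2753 to 8116 in P1-4n. The CMs of these series were not matched in depth, and the part of depth was not tested. In P1-2n the synthetases summed to 541 CPM in CMs with none of the 6 genes, 652 with 1, 867 with 2, 1142 with 3 and 1642 with 4 or more. In P1-4n the same series was 512, 551, 701, 862 and 1204. The cells with 2 genes, just outside the rule, thus lay between those with 1 and those with 3 and not with the rest of the CMs. Serine and folate enzymes went from 185 to 656 and from 184 to 477, and mitochondrial chaperones from 2128 to 4642 and from 1930 to 3361. At E16.5 and P5 the series did not all climb. From 0 to 3 genes the synthetases rose from 858 to 1404 (E16.5-2n), 805 to 1195 (E16.5-4n), 507 to 662 (P5-2n) and 538 to 647 (P5-4n). Over the same range serine and folate enzymes fell from 391 to 246 in E16.5-4n and from 207 to 173 in P5-2n. Mitochondrial chaperones fell from 2182 to 2044 in P5-2n. In the other libraries of E16.5 and P5 these 2 lists rose. These are descriptions across cells of 1 library, without a test.

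**Figure D3:**
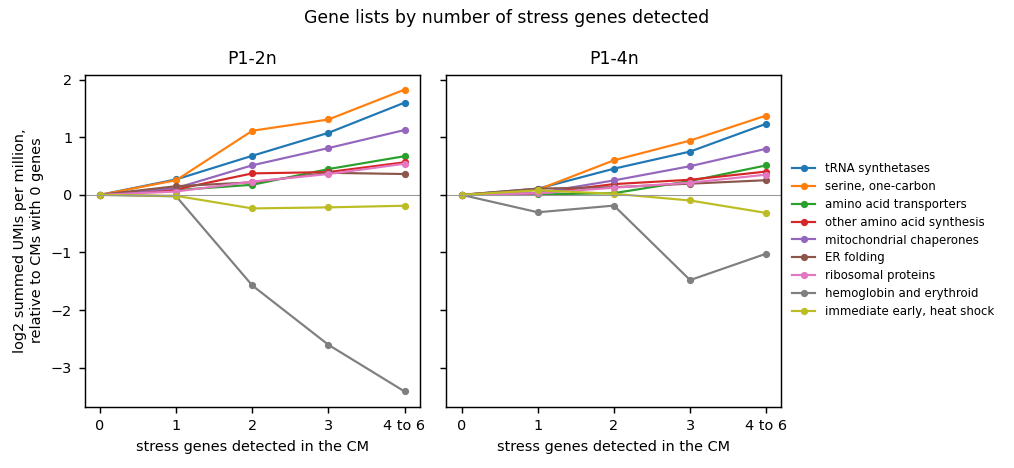
Log2 of the summed CPM of each gene list relative to CMs with 0 rule genes (y axis) by the number of rule genes detected in the CM (x axis), for P1-2n and P1-4n. The CMs are not matched in depth. Serine and folate enzymes, synthetases and mitochondrial chaperones climb with the number of rule genes, and hemoglobin and erythroid genes fall from 2150 to 202 CPM in P1-2n, whereas P1-4n gives 3364, 2727, 2956, 1206 and 1657 CPM from 0 to 4 or more rule genes.

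Other stress programmes were described by further lists. Of 18 immediate early and heat shock genes, which respond to dissociation as well as to stress in the tissue, 6 were lower over 6 libraries and none higher (Zfp36, Nr4a1, Fosb, Btg2, Egr1 and Dusp1, median of the list -0.49), and 11 were lower and 1 higher at P1. Fos was at 76.2 against 153 and 154 against 262 at P1 and Egr1 at 23.0 against 70.3 and 75.0 against 135. Egr1 and Fosb were 0.23 and 0.82 higher on the log2 scale, without passing, when P1 was left out. Hmox1, the heme-degrading enzyme that oxidative stress and ATF4 both induce, was the only 1 of 11 antioxidant genes to pass over 6 libraries (1.98 ± 0.26), with Mt1 and Mt2 at 0.29 and 0.34 at P1. Of p53 targets Cdkn1a, a brake on the cell cycle, passed (0.89 ± 0.19, higher in 6 of 6 libraries). Bax joined it at P1 (0.62 ± 0.13) and over 6 libraries with depth matched. None of 12 hypoxia genes passed over 6 libraries, and at P1 Hk2 alone did (0.49 ± 0.16).

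Contractile genes outside the rule remained abundant. The 15 sarcomere genes summed to 41360 CPM against 47076 in matched CMs of P1-2n and to 39392 against 42867 in P1-4n. Mybpc3, a thick filament protein, was lower in 6 of 6 libraries over all other CMs (-0.72 ± 0.21), and against matched CMs (-0.41, adjusted p = 0.014), but at P1 alone against matched CMs its value was -0.19 ± 0.08 (adjusted p = 0.10). Tcap, the titin cap, was lower in 6 of 6 libraries and in both comparisons (-0.88 ± 0.21 and -0.75 ± 0.09). No other of the 15 passed over 6 libraries against all other CMs, and against matched CMs Ldb3, a protein of the Z-disc, was also lower, over 6 libraries (-0.35, adjusted p = 0.049) and at P1 (-0.29 ± 0.09). None of 11 genes of the mature CM passed over 6 libraries against all other CMs, whereas against matched CMs Atp2a2, Ryr2 and Pln were lower. At P1 2 were higher (Cox6a2, Fabp3) and 3 lower (Atp2a2, Ryr2, Pln).

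At P1 both natriuretic peptides of the fetal CM list were higher, 7 of its other 8 genes were lower, and Myh7 did not pass. Nppb, the brain natriuretic peptide, was at 565 against 244 and 511 against 211 (1.33 ± 0.09), and Nppa, the atrial peptide, at 4083 against 2458 and 2248 against 1527 (0.73 ± 0.06). The lower genes included H19 (-0.82 ± 0.11), Igf2 (-0.75 ± 0.11), Acta1 (-0.56 ± 0.16) and the atrial light chain Myl7 (-0.76 ± 0.13) at P1. Over 6 libraries, against all other CMs, Myl7 (-1.20 ± 0.23) and Myl4 (-1.02 ± 0.23), both light chains of fetal and atrial muscle, were lower in every library. The natriuretic peptides did not pass in that fit. For the light chains the P5 values rest on few counts. The list of 4 atrial genes that holds both had 0 UMIs in the P5-2n stress CMs. In P5-4n it had 5 UMIs, at 47.3 CPM against 46.2 in matched CMs. Against matched CMs over 6 libraries, Nppa and Nppb were higher, and Myl4, Myl7, Igf2 and H19 were lower. In P1-2n H19 was at 36.3 against 137, whereas in P1-4n it was at 257 against 370.

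All 22 ribosomal protein genes of the list were higher at P1 (median 0.45), with a summed level of 39554 against 29299 in P1-2n and 37414 against 30804 in P1-4n. Over 6 libraries none of them passed (median -0.02), while their sum was above that of matched CMs in each library, by 0.0038 to 0.43 on the log2 scale, with no test. Nuclear and mitochondrially encoded genes of the respiratory chain numbered 4 of 20 higher and 1 lower, and 3 of 13 higher and 2 lower, at P1, where 5.69% of all genes tested were higher and 3.25% lower. Over 6 libraries none of the 20 or of the 13 passed against all other CMs, with medians of -0.32 and -0.46. Against matched CMs over 6 libraries none of the 20 passed (median -0.09). Of 12 mitochondrially encoded genes tested there, mt-Co1 and mt-Co3 were lower (median -0.21). Of 20 fatty acid genes Acot2, a mitochondrial thioesterase, passed over 6 libraries (0.78 ± 0.21), and at P1 Angptl4 (0.61 ± 0.12), Hadhb and Plin5 joined it. None of 13 glycolytic genes passed over 6 libraries against all other CMs. With depth matched over 6 libraries 1, Pgam1, was higher, and 3 were higher at P1.

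Cell cycle genes differed in direction between libraries. No S-phase or G2/M gene passed over 6 libraries (of 14 and 17). At P1, against matched CMs, 3 of them were lower and none higher. Rrm2, which supplies deoxynucleotides, was at 14.2 against 60.6 and 33.8 against 69.0 (-1.26 ± 0.18), Top2a at 4.43 against 17.0 and 22.9 against 43.7 (-1.03 ± 0.23) and Aurkb, a mitotic kinase, fell by 1.71 on the log2 scale (7 UMIs in all). The G2/M list summed to 75.8 against 138 in P1-2n and 493 against 467 in P1-4n, so that its sum was lower in 1 of the P1 libraries. Against all other CMs of P1, Ccnb1, Cdc20 and Ube2c were higher and Top2a and Rrm2 lower. Elsewhere some sums were higher, as for G2/M in P5-2n (892 against 196, 31 UMIs) and for S phase in E16.5-2n (1300 against 749, 50 UMIs) and P5-4n (605 against 437, 64 UMIs).

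The genes lowered most, by the rule for named falls, were Crhr2, E530001K10Rik, Nmral1, Rbfox1, Terf2, Bcas3, Rgs12, Zfpm2, Enpp4 and Hdac9, with log2 fold changes from -2.57 to -1.48. Crhr2 encodes a receptor of stress peptides, Rbfox1 a splicing factor and Zfpm2 a cofactor of GATA factors. All 10 were lower in 6 of 6 libraries, but in the few stress CMs of E16.5 and P5 they had 0 UMIs, apart from 1 UMI of Rgs12, so that their falls rest on P1. Against matched P1 cells Crhr2, Enpp4 and Hdac9 did not pass, and the other 7 did.

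Markers of other cell types were low in the stress CMs of P1-2n, near the level of the other CMs in P1-4n, and high in some of the remaining libraries. The 8 fibroblast markers summed to 52.1 CPM in P1-2n stress CMs against 154 in the other CMs, and to 798 against 994 in P1-4n. At P5 they summed to 4692 against 263 (2n) and 1673 against 363 (4n), and at E16.5 to 156 against 138 (2n) and 1467 against 812 (4n). Other CMs matched in depth were at 195 (2n) and 958 (4n) for P1, 915 and 1234 for P5, and 395 and 871 for E16.5. In P5-4n 1 cell held 132 of the 177 UMIs, and the other 11 were at 470 CPM. Col3a1 was the most abundant of these markers in all but E16.5-2n, level in P1-2n with Postn at 14 UMIs each. In P5-2n 3 of the 6 stress CMs held at least 2 fibroblast markers. In P1-4n 78 of 211 stress CMs (37.0%) did, against 41.0% of matched and 27.2% of all other CMs, and 21.3% held at least 2 endothelial markers against 21.7% and 10.4%. Leaving out CMs with 2 or more markers of another type cut the stress CMs of P1-4n from 211 to 111 and those of P1-2n from 223 to 218, with shares of 3.67% and 3.06%. Col1a2 and Col3a1 accordingly passed as higher over the 6 libraries (0.91 and 0.73) but were lower at P1 (-0.42 and -0.56) and higher without P1 (2.09 and 1.79), where 6 of the 8 markers passed. Endothelial markers summed to 9.14 against 36.8 in P1-2n, 152 against 145 in P1-4n and 461 against 72.4 in P5-2n. In the P1-2n stress CMs immune and epicardial markers were at 4.57 and 3.65. No endothelial, immune, mural, epicardial or neural crest marker passed over 6 libraries or at P1. The part of other cells in the stress CMs was not tested further.

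The erythroid list summed to 266 against 2083 in the other CMs of P1-2n and to 1466 against 3158 in P1-4n. At E16.5 it summed to 1664 against 5306 (2n) and 6113 against 10631 (4n), and at P5 to 4548 against 2312 (2n) and 1607 against 1701 (4n). Its sum was thus lower in 5 of 6 libraries. Counted per cell, the median stress CM held 1 hemoglobin UMI against 2 in matched CMs of P1-2n and 2 against 5 in P1-4n. At E16.5 the medians were 4 against 5 (2n) and 11 against 8 (4n), and at P5 7 against 4.5 (2n) and 5 against 4 (4n), so that they were lower in 3 of 6 libraries. Hbb-bt (-1.49 ± 0.22), Hbb-bs (-1.25 ± 0.22), Hba-a1 (-1.20 ± 0.22) and Hba-a2 (-1.17 ± 0.22) all passed. These genes are near-identical pairs whose reads may be split between copies. Alas2, which starts heme synthesis in red cells, did not pass (7 UMIs in the P1 stress CMs). At P1 against matched CMs the 4 values lay between -1.80 and -1.65. Hemoglobin is the product of red cells and not of CMs, and its part in the other differences was not tested.

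**Figure D4:**
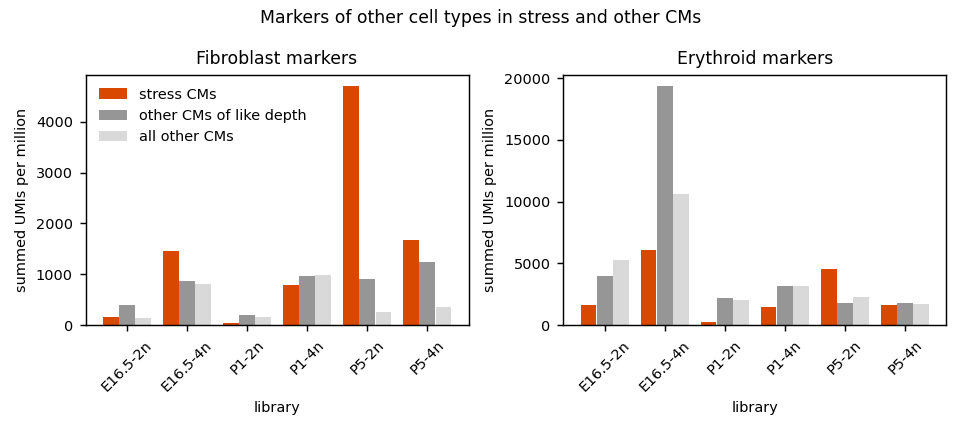
Summed CPM (y axis) of 8 fibroblast markers (left) and 6 erythroid markers (right) in stress CMs, other CMs matched in depth and all other CMs of each library (x axis). Fibroblast markers reach 4692 in the 6 stress CMs of P5-2n and stay at 52.1 in the 223 of P1-2n, where erythroid markers are at 266.

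Differences between the ages were tested as interactions. The change of stress against other CMs differed between P1 and the other ages for 186 of 10480 genes, 145 (1.38%) with a larger value at P1 and 41 (0.391%) with a smaller one, and with depth matched for 9 of 3069 (5 larger, 4 smaller). Mthfd2 was larger at P1 by 2.93 on the log2 scale, Nars by 2.71, Psph by 2.54, Nmrk2 by 2.27 and Psat1 by 1.91. For Gars and Slc3a2, higher in all 6 libraries, the difference was 1.58 and 1.35, and for Col1a2 and Col3a1 -2.49 and -2.36. Of the 145 genes larger at P1 136 were also tested with depth matched and 5 passed there, and Col3a1 (-1.53 ± 0.34) passed as smaller. Gars (0.98 ± 0.31, adjusted p = 0.19), Slc3a2 (0.92 ± 0.49, adjusted p = 0.54), Nars (1.90 ± 0.49, adjusted p = 0.076), Nmrk2 (0.91 ± 0.23, adjusted p = 0.080) and Col1a2 (-1.37 ± 0.34, adjusted p = 0.067) did not, and Mthfd2, Psph and Psat1 were not tested there. The median difference over all genes was 0.34 with all other CMs and 0.03 with depth matched. Between P5 and E16.5 8 genes differed, fibroblast genes such as Mgp and Col1a1 among them, and none with depth matched. Between 4n and 2n no gene passed by edgeR (227 of 10480 at an unadjusted p under 0.05, and 37 of 3069 with depth matched), which with 3 libraries of each ploidy does not show that the classes were alike.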

How the data were processed

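Single-cell RNA was measured in 6 libraries. The deposited files held whole-number UMI counts per gene and cell as the authors' Cell Ranger and STAR runs on mm10 (GRCm38) made them, with Seurat 2.3.0 also named in the submitters' notes. The Cell Ranger and STAR versions are not given in the sources used here. Each library was sequenced in 2 runs and pooled cells of 3 sorts. 2 files (a table of the authors' own fold changes and p-values, and a background gene list) were not used.

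UMIs of stress CMs and of the other CMs were summed per library, and the 12 sums were tested with edgeR 4.0.16 (quasi-likelihood, TMM, library as a block, 5 residual degrees of freedom) in R 4.3.3. Since the cells of both sums of a library come from the same sorts, pairing follows from the design. Other CMs nearest in depth, thinning to 1000 or 2000 UMIs, DESeq2 1.42.0, other filters and rules and the omission of each library were alternatives. Those on P1 alone, without P1 and the P1 interaction were added after the data had been seen. Shares carry Clopper-Pearson 95% intervals, which cover counting error only. CPM of genes are per 1000000 of all UMIs, and those of list sums per 1000000 UMIs outside the rule. Doublets were not called. Positions are from GENCODE vM21, promoters from RefSeq. Not every promoter window with the motif is reported here. Python 3.11.15, numpy 2.4.6, scipy 1.17.1, pandas 2.3.3 and matplotlib 3.10.9 were used, and the tests were checked on simulated data.

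The members and the gene lists were chosen with earlier results of these data known. Named were the list members past the test, those with most UMIs where few passed, and, outside the lists, up to 12 rises (at least 50 UMIs in stress CMs) and 10 falls (at least 500 UMIs in other CMs) of the largest size with 1 sign in all 6 libraries.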

Additional observations from a re-analysis of the deposited data

Results flagged for a closer look

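The change of stress against other CMs differed between P1 and the other ages for 186 genes (edgeR interaction, all other CMs), a contrast added after the data had been seen. Among the genes named here, the value at P1 minus that at E16.5 and P5 was 2.93 for Mthfd2, 2.71 for Nars, 2.54 for Psph, 2.27 for Nmrk2, 1.91 for Psat1, 1.73 for Acot2, 1.60 for Ddit3, 1.58 for Gars, 1.35 for Slc3a2, 1.21 for Eprs and 1.08 for the initiation factor gene Eif3c, all on the log2 scale. It was negative for hemoglobin (-0.96 for Hba-a2 and -1.22 for Hba-a1), for the immediate early genes Egr1 (-1.44) and Fosb (-2.11) and for the collagens Col3a1 (-2.36) and Col1a2 (-2.49). With depth matched 9 genes passed, among them Col3a1, Nppb, Hspa9, Rrm2 and Eif2s2. Of the genes listed above Col3a1 alone passed there. Nars, Nmrk2, Acot2, Ddit3, Gars, Slc3a2, Eprs, Eif3c, both hemoglobin genes, Egr1 and Col1a2 were tested, kept their direction and did not pass, at 1.90 for Nars, 1.30 for Ddit3, 0.98 for Gars, 0.92 for Slc3a2 and 0.91 for Eprs, and Mthfd2, Psph, Psat1 and Fosb were not tested.

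Between P5 and E16.5, 8 genes differed, all with the larger value at P5. These were Mgp (3.48), Actb (3.26), Col1a1 (3.15), Fabp4 (2.84), Col1a2 (2.30), Col3a1 (2.12), Fstl1 (1.88) and Mest (1.83), on the log2 scale. The contrast sets 18 stress CMs at P5 against 26 at E16.5, and fibroblast markers summed to 4692 CPM in the 6 stress CMs of P5-2n. Their part in these differences was not tested.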

How the results depend on the processing

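The pooled share of stress CMs at P1 (3.59%) became 0.369% and 1.92% after thinning to 1000 and 2000 UMIs, 6.66% with at least 2 genes, 2.03% with at least 4, 3.23%, 2.61%, 2.66%, 2.32% and 2.66% without Trib3, Asns, Atf5, Phgdh or Sars in the rule, and 3.24% without CMs of other cell type markers. The pooled share at E16.5 and P5 (0.236%) became 0.0112% and 0.0440% after the same thinning, 2.99% with at least 2 genes, 0.0215% with at least 4, and 0.139%, 0.0804%, 0.0858% and 0.0483% without Asns, Atf5, Phgdh or Sars. P1 was above the other ages under each of these.

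The 106 genes higher and 136 lower became 42 and 45 after thinning to 2000 UMIs, 194 and 250 with median-of-ratios size factors, 5 and 4 with DESeq2, 109 and 85 with at least 4 rule genes, and 186 and 517 without CMs of other cell type markers. Without the library as a block the counts were 5 and 0. Leaving out 1 library at a time gave 13 to 166 higher and 4 to 169 lower, the lowest without P1-2n and the highest without P5-2n. P1 alone gave 750 and 523, P1 matched in depth 548 and 313, and the libraries without P1 17 and 20. With depth matched, the P1 interaction called 9 genes and the age interaction 0 (edgeR, 117 at an unadjusted p under 0.05). DESeq2 left 7924 genes without an adjusted p. The causes were not tested.

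Of 79 named genes, 79 kept their direction and call with median-of-ratios size factors, 13 without P1-2n, 16 without P1-4n and 7 without P1. The median log2 fold change of all genes tested without P1 was -0.33. Without P1 the sign turned for Aldh18a1 (-0.086), Stc2 (-0.056), Arhgef2 (-0.48), Nars (-0.81), Fam129a (-1.37), Cebpg (-0.12), Mthfd1l (-0.48), Shmt1 (-0.095), Shmt2 (-0.085), Psph (-1.42), Lars (-0.49), Ddit3 (-0.27), Acot2 (-0.61), Aldh1l2 (-0.46), Fosb (0.82) and Egr1 (0.23). Col1a2 turned to -0.056 after thinning, -0.47 without CMs of other cell type markers, -0.44 at P1 alone and -0.42 at P1 matched in depth. Col3a1 turned to -0.024 with depth matched, -0.99 without CMs of other cell type markers, -0.52 at P1 alone and -0.56 at P1 matched in depth.

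At E16.5 and P5 the 44 stress CMs gave few UMIs of most genes, which limits what can be detected there.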

Other observations

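The stress CMs of P1 also differed from matched CMs in hemoglobin and sex-linked transcripts. The following splits were made after the data had been seen and carry no test. Of the P1-2n stress CMs 88.3% held at most 2 hemoglobin UMIs, against 62.3% of matched CMs, and of the P1-4n stress CMs 51.2% against 35.3%. Among P1-2n CMs with 5000 to 8000 UMIs, the share of stress CMs was 33.9% (60 of 177) with 0 to 2 hemoglobin UMIs, 11.5% (7 of 61) with 3 to 9, and 0 of 30 with 10 or more (95% upper limit 11.6%). In P1-4n it was 18.4%, 5.80% and 2.38%. Above 8000 UMIs the P1-4n shares were 25.2%, 30.6% and 18.1%, without that order between the first 2.

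Xist, the RNA that silences 1 X chromosome in female cells, was found in 7.62% of P1-2n stress CMs against 22.5% of matched CMs, and in 35.5% against 46.5% in P1-4n. Y-linked transcripts were found in 41.3% against 24.9%, and in 53.6% against 33.6%. Among CMs with 5000 to 8000 UMIs, 40.0% (28 of 70, 95% interval 28.5 to 52.4%) of P1-2n cells with a Y-linked UMI and no Xist UMI were stress CMs, against 10.2% (5 of 49, 3.40 to 22.2%) of those with Xist alone. In P1-4n the shares were 20.4% (39 of 191) and 6.57% (18 of 274). Each library pooled 3 litters and the files used here do not say which litter a cell came from, so that sex, litter and sort cannot be told apart.

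In the P1 comparison with matched CMs, the rises outside the lists included Eif2s2, another subunit of eIF2, at 944 against 374 CPM in P1-2n and 627 against 303 in P1-4n (log2 fold change 1.27 ± 0.08, edgeR). The largest falls were Slc6a13 (-2.65) and Esco2 (-2.55), the latter an acetyltransferase of S phase.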
